A study of Homo sapiens with 20 samples.

Results

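Transforming growth factor beta (TGF-beta) signalling was followed in HepaRG cells through 9 genes: the ligands TGFB1, TGFB2 and TGFB3, the latency protein LTBP1, the receptors TGFBR1 and TGFBR2, the signal transducers SMAD3 and SMAD7, and the target gene TGFBI. The genes were taken by name, and all probes whose RefSeq accession maps to any of them were used, which gave 10 of the 42405 probes and 9 of the 19062 named genes of the array. The progenitors of this human hepatoma line can become hepatocyte-like and biliary-like cells, and all values come from that 1 line. RNA was hybridized to one-color Agilent arrays for 5 conditions with 4 arrays each, which the study describes as independent biological replicates. D4 is day 4 after seeding, D15 is day 15, and D30 − DMSO is day 30, all 3 in medium with serum, insulin and hydrocortisone and with no dimethyl sulfoxide (DMSO). D30 + DMSO cells had 2% DMSO added to the same medium from day 15 to day 30, and D34 ± DMSO cells were D30 + DMSO cultures kept for 4 more days after its removal. No condition carries a genetic change or any other agent.

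TGF-beta ligands are secreted in a latent form that LTBP proteins tie to the extracellular matrix and that integrins can open. The free ligand binds TGFBR2, which recruits and activates TGFBR1, and this kinase phosphorylates SMAD2 and SMAD3 so that they enter the nucleus with SMAD4, while SMAD7 is an inhibitor that the pathway itself induces. In liver the pathway is known for restraining hepatocyte growth, for matrix production and for a part in the choice between hepatocyte and biliary fates.

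Signals are given in intensity units after scaling each array to a common 75th percentile, and a fold change was called where limma gave an adjusted p below 0.005 (Benjamini-Hochberg, over all 26538 probes tested) and a change above 2-fold. Signals of different probes depend on the probe, so levels are compared between conditions and not between genes. A probe was tested if Feature Extraction, the scanner's software, flagged it as well above background on each of the 4 arrays of some condition, as it did for 9 of the 10 probes. The other is a second LTBP1 probe, which had that flag only on D4 replicates 1 and 4, with signals of 20.4 and 19.0, and its signals elsewhere were at most 10.54. Replicate arrays correlated with r of 0.955 to 0.992 over probes, and between 61.1% and 74.2% of the spots of an array were well above background. The arrays lie on 4 slides, and slide 4, the only slide of the second scan session, holds 7 of the 20 arrays: replicate 4 of every condition and replicate 3 of D15 and D30 + DMSO. All 6 hepatocyte markers checked were well above background on every array from D15 on, but no D4 array flagged HNF4A as well above background. Their summed signal was 126660 at D4, 914175 at D15, 923942 at D30 − DMSO, 1322000 at D30 + DMSO and 946591 at D34 ± DMSO. The biliary and progenitor markers KRT7, KRT19, SOX9 and AFP were well above background on all arrays, while EPCAM was on none. PROM1 was on 1 array at D15, on 1 at D30 − DMSO and on none in the other conditions. The mean signals of SOX9 (166 against 66.4) and KRT7 (19154 against 17571) were higher at D30 + DMSO than at D30 − DMSO. Those of KRT19 (49897 against 57369) and AFP (432 against 611) were lower. These marker values are given as means only.

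The calls fell on 4 genes, TGFB2, TGFB3, LTBP1 and TGFBI, while TGFB1, the receptors, SMAD3 and SMAD7 were called in none of the 5 comparisons. From D4 to D15, 2 of the 9 tested probes fell, those of TGFB2 and LTBP1, beside a background of 3.68% of all probes lower and 5.58% higher. Between D15 and D30 − DMSO limma called none of the 9, none had an unadjusted p below 0.05, the methods' t-test also called none, and the background was 0.00377% higher and 0% lower. With DMSO, 3 of 9 fell, TGFB2, TGFB3 and TGFBI, against 4.14% of all probes lower and 1.68% higher. After DMSO removal 1 of 9 rose, TGFB2, against 4.93% higher and 2.04% lower. Between D34 ± DMSO and D30 − DMSO limma and the methods' t-test called none of the 9, beside a background of 1.29% higher and 0.2% lower. In limma 3 of the 9 had an unadjusted p below 0.05, as did 4036 of the 26538 probes tested. The comparison with DMSO and the comparison after its removal share the 4 D30 + DMSO arrays, so a fall in the first and a rise in the second are not separate measurements of that condition. The median log2 fold change of the 9 probes was -0.35 from D4 to D15, -0.37 with DMSO and 0.44 after its removal, while that of all tested probes was 0.03, 0.04 and -0.06.

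**Figure D1:**
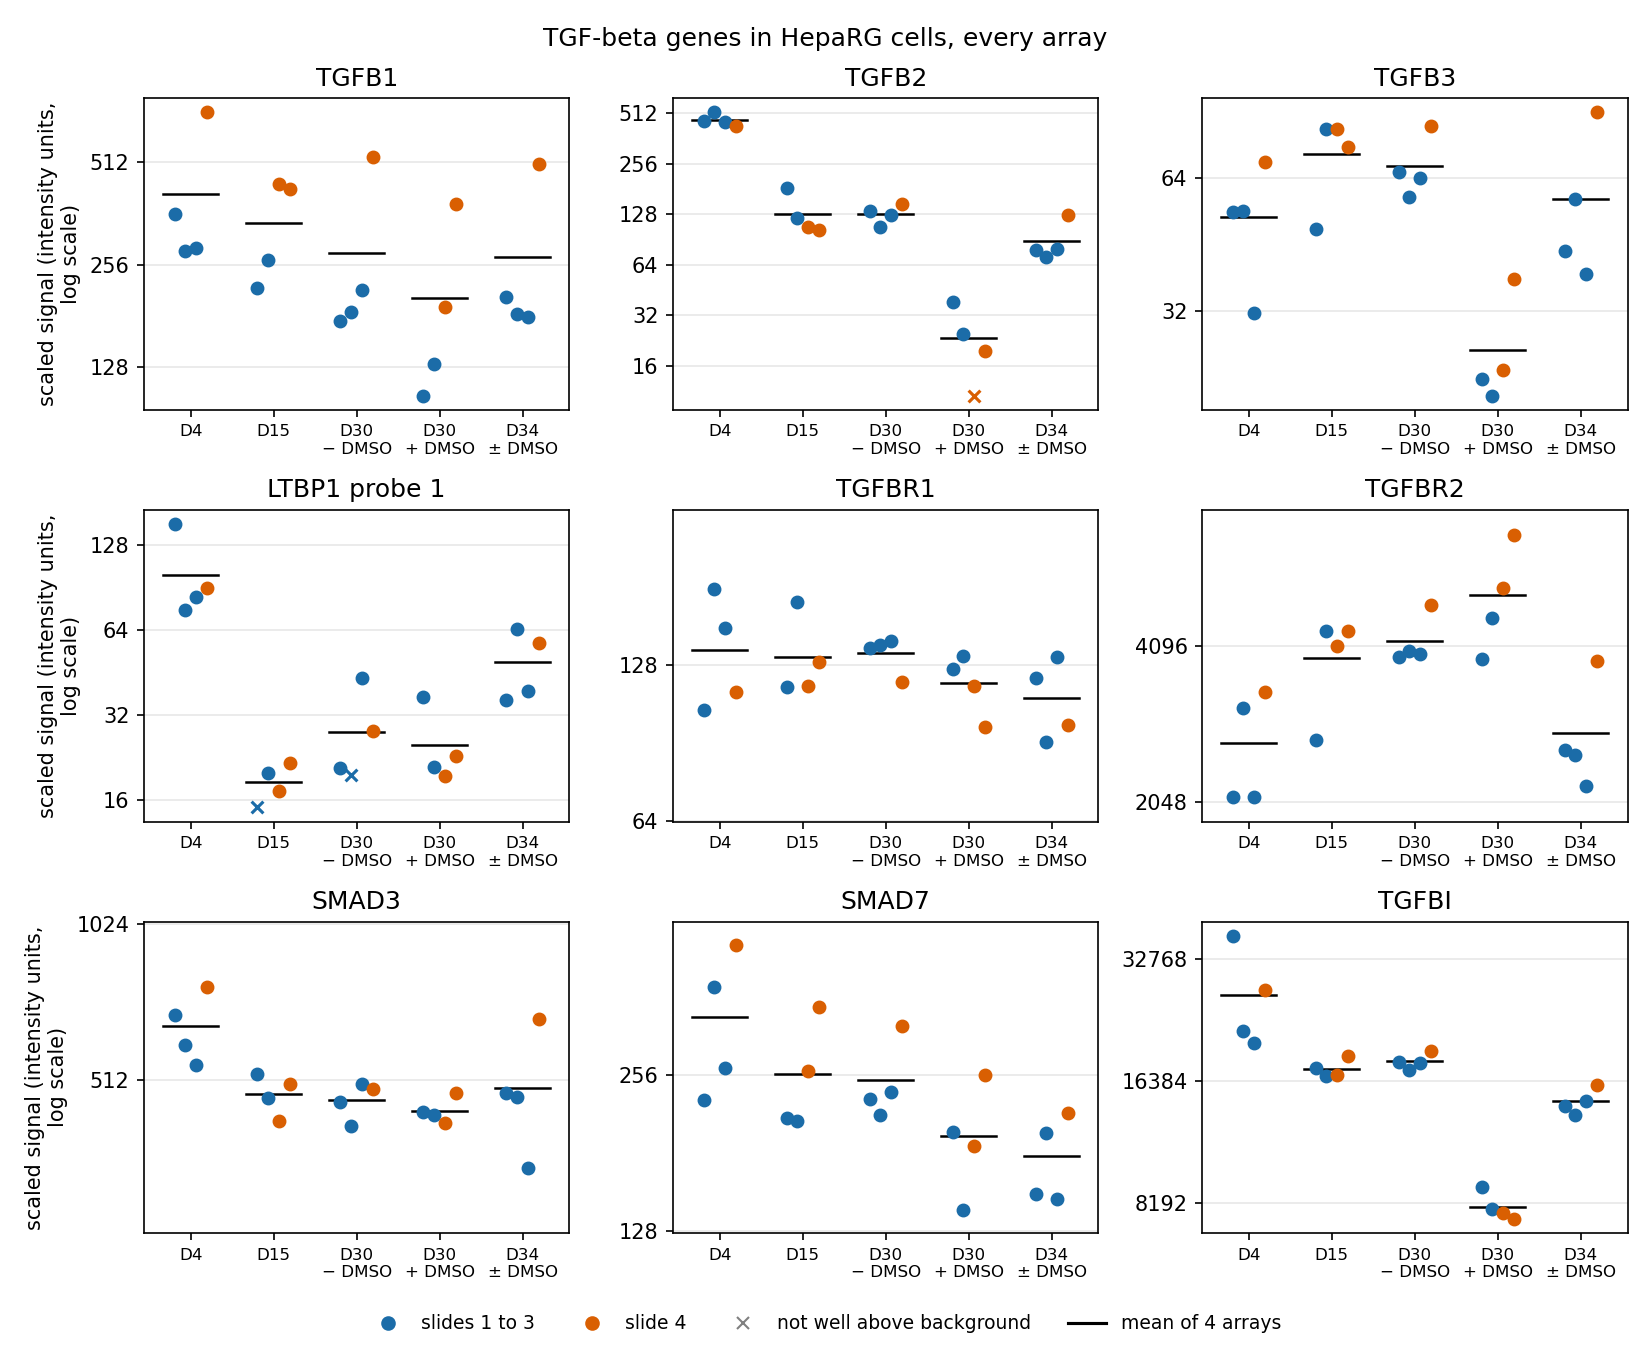
Scaled signal in intensity units (log scale) of the 9 tested probes on each of the 20 arrays, by condition; bars are means of 4 arrays, orange points are arrays of slide 4 and crosses are arrays where the probe was not well above background. TGFB2 falls from 427 to 520 at D4 to 10.6 to 38.3 at D30 + DMSO, and the replicate 4 arrays of TGFB1, all on slide 4, lie above the other arrays of their condition except at D15.

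The sequences just before the genes are shown for the 4 genes that were called in any comparison, since promoters are among the places where the SMAD proteins of the pathway act. All 9 genes have windows among the promoter sequences of RefSeq (build GRCh38.p14), and for genes with several starts the window of the outermost start is used, which need not be the start in use in these cells. Each sequence below holds the 250 bases before that start, on the strand of the gene, and lies at chr1:218345086-218345335 (+ strand) for TGFB2, chr14:75983012-75983261 (− strand) for TGFB3, chr5:136028738-136028987 (+ strand) for TGFBI and chr2:32946703-32946952 (+ strand) for LTBP1. Capitals mark the SMAD box CAGAC on either strand (GTCTG on the other) and the cyclic AMP response element TGACGTCA.
TGFB2: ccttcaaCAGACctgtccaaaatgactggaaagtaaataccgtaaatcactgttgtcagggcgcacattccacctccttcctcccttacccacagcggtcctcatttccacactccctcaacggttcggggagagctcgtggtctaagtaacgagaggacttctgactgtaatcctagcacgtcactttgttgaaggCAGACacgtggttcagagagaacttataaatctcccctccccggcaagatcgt
TGFB3: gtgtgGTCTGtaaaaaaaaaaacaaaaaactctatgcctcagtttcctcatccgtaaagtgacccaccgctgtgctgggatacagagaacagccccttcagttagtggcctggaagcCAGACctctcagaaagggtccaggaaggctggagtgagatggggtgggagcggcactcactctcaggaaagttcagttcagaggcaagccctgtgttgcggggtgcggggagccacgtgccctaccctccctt
TGFBI: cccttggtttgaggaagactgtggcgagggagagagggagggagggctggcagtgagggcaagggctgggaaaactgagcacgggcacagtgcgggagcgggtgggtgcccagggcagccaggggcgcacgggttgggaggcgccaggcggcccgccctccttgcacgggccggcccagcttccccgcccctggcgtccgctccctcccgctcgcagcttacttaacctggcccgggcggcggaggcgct
LTBP1: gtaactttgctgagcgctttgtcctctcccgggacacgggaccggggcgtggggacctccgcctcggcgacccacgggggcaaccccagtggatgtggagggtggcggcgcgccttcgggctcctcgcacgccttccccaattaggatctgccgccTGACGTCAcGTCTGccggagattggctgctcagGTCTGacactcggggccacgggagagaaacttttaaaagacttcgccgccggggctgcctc

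The windows of TGFB2, TGFB3 and LTBP1 each held 2 SMAD boxes and that of TGFBI held none. Over the 9 genes, 4 outermost windows held at least 1 SMAD box (SMAD7 being the fourth). Of all 35116 promoter windows of the same length, which count every listed start of a gene, 38% did. The count thus depends on the window taken: some other windows of TGFBR1 and SMAD3 hold SMAD boxes, while the other TGFB3 window holds none and no E box. The SMAD boxes of TGFB2 begin 243 and 53 bases before the start, and the second shares 1 base with an E box, CACGTG, a motif that 6.34% of all windows hold and that the TGFB3 window also has, 20 bases before its start. A TATA box, TATAAA, begins 29 bases before the TGFB2 start (10.72% of all windows hold 1 on either strand), and the response element of LTBP1, held by 1.65% of all windows, begins 94 bases before the start. The TGFBI window has 72.8% G and C and 3 GC boxes (GGGCGG on either strand, in 42.64% of all windows), while the TGFB2 window has 50.4% G and C and none. The palindromic SMAD element GTCTAGAC, in 0.18% of all windows, was in none of the 9, and the AP-1 letters TGANTCA, in 6.57% of all windows, are not in these 4.

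TGFB2, a ligand that binds its receptors with the help of a co-receptor, fell between D4 and D15, fell again with DMSO and rose after its removal, and its fold change with DMSO was the largest of the 9 probes. At D4 its signal (NM_003238) was 462, 520, 453 and 427 on replicates 1 to 4, and at D15 it was 182, 121, 106.9 and 103. All D15 arrays were below all D4 arrays, a log2 fold change of -1.89 (SE 0.29, limma adjusted p = 7.07e-05), or 3.72-fold lower. At D30 − DMSO the arrays read 134, 106.9, 126 and 147, which overlap with D15 (log2 fold change 0.03, 95% interval -0.59 to 0.65). With DMSO they read 38.3, 24.9, 10.6 and 19.6, all below D30 − DMSO, and replicate 3 was not well above background there. The log2 fold change with DMSO was -2.60 (SE 0.29, limma adjusted p = 4.43e-06), or 6.05-fold lower. After 4 days without DMSO the signal was 78.0, 71.3, 79.5 and 127, above every D30 + DMSO array, a log2 fold change of 2.04 (SE 0.29, limma adjusted p = 4.51e-05) or 4.10-fold higher. D34 ± DMSO overlapped with D30 − DMSO in 1 array, replicate 4, and the difference did not pass (log2 fold change -0.56, 95% interval -1.18 to 0.06). The order of the group means was therefore D4 at 466 ± 39.1 (SD, n = 4), then D30 − DMSO at 129 ± 17.0 and D15 at 128 ± 36.8, then D34 ± DMSO at 89.0 ± 25.8 and D30 + DMSO at 23.4 ± 11.6, where D15 and D34 ± DMSO did not differ from D30 − DMSO beyond the limits of a call and were not tested against each other.

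TGFB2 kept these calls with the slide as a block (log2 fold changes of -1.87, -2.58 and 2.01 for D15 against D4, DMSO and its removal). Within slides the log2 difference from D4 to D15 was between -2.02 and -1.34, that with DMSO was -2.12 on slide 3 and -3.35 on slide 4, and that after removal was 1.35 and 3.14. Each within-slide difference, here and below, rests on only 1 or 2 arrays per condition. The slide 4 values with DMSO and after removal include D30 + DMSO replicate 3, where TGFB2 was not well above background. Leaving out slide 4 keeps only replicates 1 and 2 of D30 + DMSO, both on slide 3. TGFB2 was then 3.95-fold lower with DMSO and 2.47-fold higher after removal, both still called. An alternative background correction, normexp, adds 50 units, more than the TGFB2 mean of 23.4 at D30 + DMSO. By construction it shrinks the folds of dim probes. With it the fold with DMSO was 1.99 and that after removal 1.62. Each was below 2-fold and so not called, with limma adjusted p of 1.39e-05 and 0.000438. The methods' t-test gave adjusted p of 0.00915 and 0.0273 for the same changes, and the fit of only the 8 arrays gave 0.00663 for removal, so those calls were lost there.

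TGFB3, the third ligand, was called only with DMSO. Its signal (NM_003239) was 53.5, 53.9, 31.7 and 69.8 at D4, 49.1, 82.7, 82.8 and 75.5 at D15, and 66.1, 57.9, 63.9 and 84.3 at D30 − DMSO. These 3 conditions overlap, and neither step passed (log2 fold changes of 0.50, adjusted p = 0.24, and -0.07, adjusted p = 1). With DMSO the arrays read 22.4, 20.5, 23.5 and 37.9, all below D30 − DMSO. The fall was -1.42 on the log2 scale (SE 0.28, limma adjusted p = 0.00133), or 2.67-fold. After removal they read 43.6, 57.3, 38.8 and 90.4, all above D30 + DMSO though narrowly, since 38.8 stands against 37.9. The log2 fold change of 1.11 (SE 0.28) had a limma adjusted p of 0.00739 and was not called. With the slide as a block it was 1.19 with an adjusted p of 0.000581 and was called, as it was with the scan session as a block (1.24) and with the replicate number as a block (1.11). The fall with DMSO was the least stable of the 3 calls: it was lost with quantile normalization (-1.35, adjusted p = 0.0149), with normexp (-0.48, adjusted p = 0.0478), with the methods' t-test (adjusted p = 0.0109) and without D30 + DMSO replicate 1, 2 or 3 or D30 − DMSO replicate 4 (log2 fold changes of -1.36, -1.32, -1.38 and -1.31). Within slides it was -1.63 and -1.50.

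TGFB1, the ligand most studied in liver, was not called in any comparison, and its arrays split by slide. Its signal (NM_000660, a probe with 10 spots) was 362, 281, 286 and 719 at D4, 219, 265, 443 and 429 at D15, 175, 186, 215 and 531 at D30 − DMSO, 106, 131, 192 and 387 at D30 + DMSO, and 206, 184, 180 and 506 at D34 ± DMSO. Over the 7 arrays of slide 4 the signal ran from 192 to 719 with a median of 443, and over the 13 arrays of the other slides from 106 to 362 with a median of 206. In the DMSO comparison the log2 fold change was -0.46 (SE 0.46, limma adjusted p = 0.587) and after removal 0.44 (SE 0.46, adjusted p = 0.595). Within slides the values were -0.57 on slide 3 and -0.96 on slide 4 with DMSO, and 0.71 and 0.89 after its removal. With the scan session as a block they were -0.77 (SE 0.18, adjusted p = 0.00439) and 0.74 (SE 0.18, adjusted p = 0.00483), 1.70-fold and 1.67-fold, which is under the 2-fold limit of a call. The part of the slides in the TGFB1 values beyond these fits was not tested.

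LTBP1, which ties latent TGF-beta to the matrix, was the other gene called between D4 and D15, and it was not called with DMSO or after it. Its first probe (NM_206943) read 152, 75.3, 83.8 and 90.0 at D4 and 15.1, 19.97, 17.2 and 21.8 at D15. Every D15 array was below every D4 array, and replicate 1 of D15 was not well above background. The log2 fold change was -2.39 (SE 0.28, limma adjusted p = 3.46e-06), or 5.26-fold lower, and within slides it was between -3.33 and -2.07. With normexp it was 1.77-fold lower (adjusted p = 0.000169) and not called. At D30 − DMSO the probe read 20.8, 19.7, 43.3 and 28.1 (19.7 being not well above background), and at D30 + DMSO 37.1, 21.1, 19.5 and 23.0. These overlap (log2 fold change -0.13, 95% interval -0.73 to 0.47). At D34 ± DMSO it read 36.3, 64.8, 39.1 and 57.6, a log2 fold change of 0.98 against D30 + DMSO (SE 0.28, limma adjusted p = 0.0169) and 0.85 against D30 − DMSO (adjusted p = 0.104), neither called. The second probe of the same transcript had means of 13.2 at D4 and 2.90 to 5.17 in the other conditions, and only D4 has arrays where it was well above background.

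The 2 receptors were not called anywhere. TGFBR1, the type I receptor kinase (NM_004612), had means of 137 ± 34.6 at D4, 133 ± 25.1 at D15, 135 ± 10.9 at D30 − DMSO, 118 ± 15.7 at D30 + DMSO and 111 ± 19.4 at D34 ± DMSO (SD, n = 4 each), and all 5 conditions overlap. Its log2 fold change with DMSO was -0.20 (95% interval -0.58 to 0.19). TGFBR2, the type II receptor that binds the ligand first (NM_001024847), had means of 2660 ± 658 at D4, 3883 ± 805 at D15, 4191 ± 483 at D30 − DMSO and 5136 ± 1209 at D30 + DMSO (SD, n = 4 each), and no step of this series passed the test (D15 against D4: 0.55, adjusted p = 0.0811; DMSO: 0.27, adjusted p = 0.484). At D30 + DMSO the arrays read 3869, 4645, 5311 and 6720.3, and at D34 ± DMSO 2578, 2521, 2195 and 3825. All 4 of the latter were below all 4 of the former, with a log2 fold change of -0.89 (SE 0.22, limma adjusted p = 0.00631), or 1.85-fold lower, and not called. It passed both limits without D34 ± DMSO replicate 4 (-1.05) or without D30 + DMSO replicate 1 (-1.02), and with the slide as a block it was -0.82 with an adjusted p of 0.000823 but under 2-fold. D34 ± DMSO was also below D30 − DMSO on every array (3893 to 4913), at -0.62 (SE 0.22, adjusted p = 0.139).

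Of the SMADs, SMAD3, which carries the signal to the nucleus (NM_005902), was between 548 and 775 at D4 and between 427 and 527 at D15, all lower, with a log2 fold change of -0.42 (SE 0.16, limma adjusted p = 0.071). Its later conditions overlap, and its change with DMSO was -0.07 (95% interval -0.42 to 0.28). SMAD7, the feedback inhibitor (NM_005904), had means of 332 ± 105 at D4, 257 ± 64.5 at D15, 250.2 ± 46.5 at D30 − DMSO, 196 ± 47.7 at D30 + DMSO and 178 ± 34.2 at D34 ± DMSO (SD, n = 4 each). Neighbours in this order overlap, and no SMAD7 comparison was called, with log2 fold changes of -0.35 from D4 to D15 (adjusted p = 0.354), -0.37 with DMSO (adjusted p = 0.344) and -0.12 after its removal (adjusted p = 0.804).

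TGFBI, a matrix protein named for its induction by TGF-beta, fell with DMSO. It read 37319.5, 21729, 20318 and 27359 at D4 (NM_000358), 17613, 16806, 16874 and 18885 at D15, and 18236, 17368, 18158 and 19406 at D30 − DMSO. D15 was below D4 on every array, but the log2 fold change of -0.56 (SE 0.15) had a limma adjusted p of 0.00963 and was not called. With DMSO the arrays read 8967, 7889, 7740 and 7463, all below the D30 − DMSO arrays. The fall was -1.19 on the log2 scale (SE 0.15, limma adjusted p = 1.67e-05), or 2.29-fold, and -1.12 and -1.35 within slides 3 and 4. Without slide 4, and so with only replicates 1 and 2 of D30 + DMSO, it was 2.13-fold with a limma adjusted p of 0.00716, and the call was lost. After removal they read 14162, 13461, 14634 and 15967, between the 2 conditions and apart from both. The rise against D30 + DMSO was 0.86 on the log2 scale (SE 0.15, limma adjusted p = 0.000356), past the p limit but 1.82-fold and so not called, and D34 ± DMSO was -0.33 from D30 − DMSO (SE 0.15, adjusted p = 0.297). In the normexp setting the DMSO fold of this bright probe was 2.31.

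**Figure D2:**
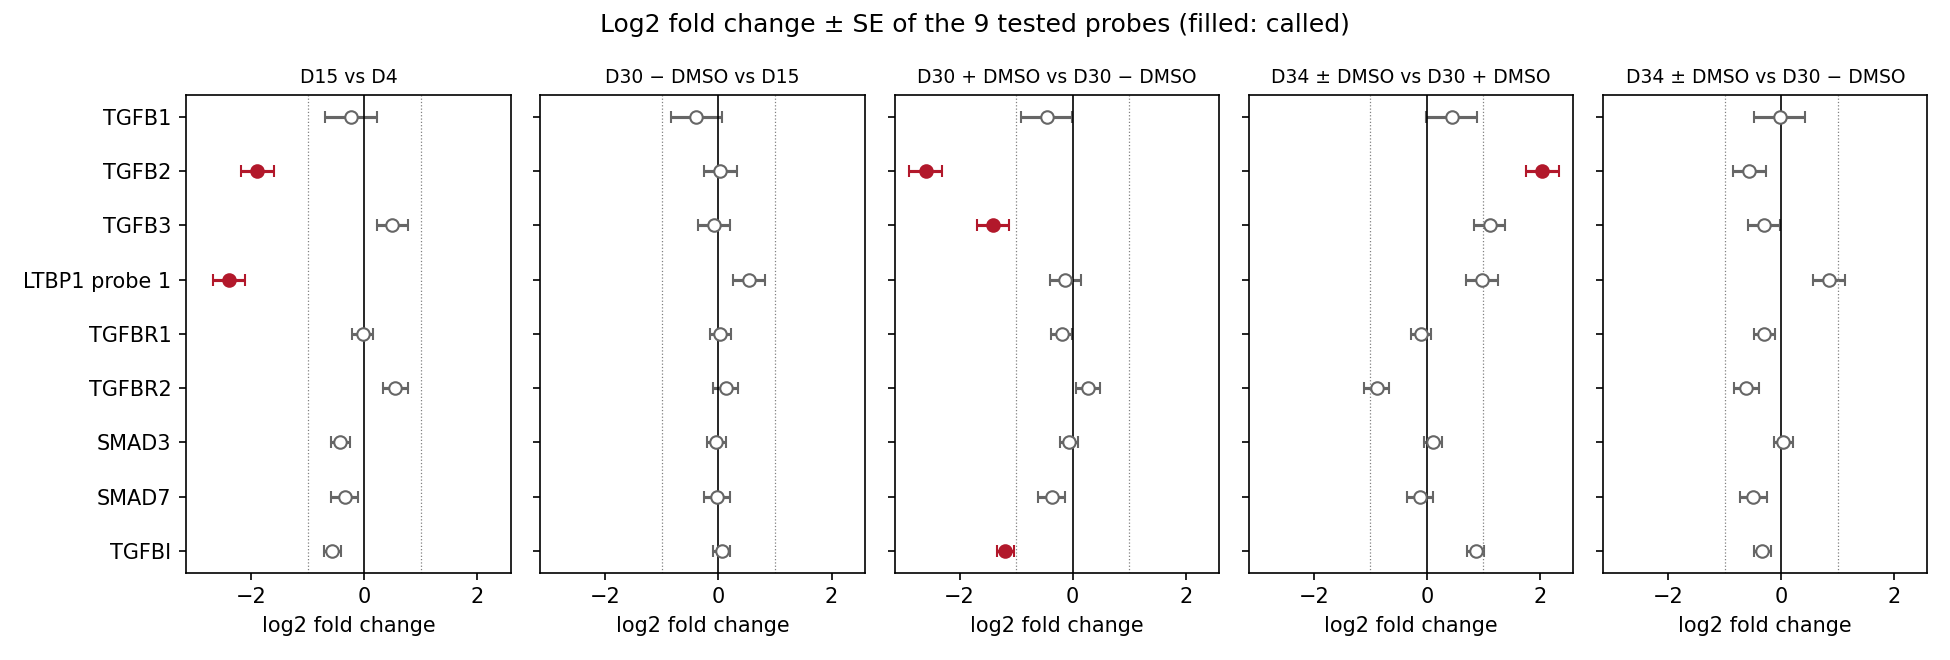
Log2 fold change with its SE (bars) of the 9 tested probes in the 5 comparisons; filled red points were called and dotted lines mark 2-fold. The called points are TGFB2 and LTBP1 in D15 against D4 (-1.89 and -2.39), TGFB2, TGFB3 and TGFBI with DMSO (-2.60, -1.42 and -1.19), and TGFB2 after its removal (2.04).

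The genes whose profile over the 20 arrays was most like that of a called member were taken from all tested genes by Pearson's r of the log2 values, as a description, since arrays share their condition and slide. For TGFB2 they were BMPER (r = 0.973), a secreted regulator of bone morphogenetic proteins, and RHOBTB1 (r = 0.965). For TGFBI they were CAV1, the caveolar protein caveolin-1 (r = 0.964), and MAP7D2 (r = 0.961). For TGFB3 they were NFX1 (r = 0.921) and TOR4A (r = 0.919), and for the first LTBP1 probe PRIM2, a subunit of DNA primase (r = 0.897), and CDCP1 (r = 0.892).

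Of 106 other genes of the pathway in 5 lists, 88 were tested, each by its brightest probe. From D4 to D15, 16 of them fell and 4 rose (3.68% and 5.58% of all probes). Between D15 and D30 − DMSO limma called none, with 10 at an unadjusted p below 0.05 (778 of the 26538 probes tested). With DMSO 11 fell and 1 rose (4.14% and 1.68% of all probes), and after its removal 9 rose and 2 fell (4.93% and 2.04%). Between D34 ± DMSO and D30 − DMSO limma called none, with 21 at an unadjusted p below 0.05 (4036 of the 26538 probes tested). With the slide as a block the counts were 19 lower and 8 higher from D4 to D15, 12 and 2 with DMSO, and 3 and 9 after removal, and with the slide or the scan session as a block 1 gene was called lower in D34 ± DMSO against D30 − DMSO. With normexp they were 13 lower and 3 higher, 7 and 1, and 2 and 6. The median log2 fold change of the 88 genes was -0.23 from D4 to D15, -0.12 with DMSO and -0.04 after removal, against 0.03, 0.04 and -0.06 for all tested probes.

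**Figure D3:**
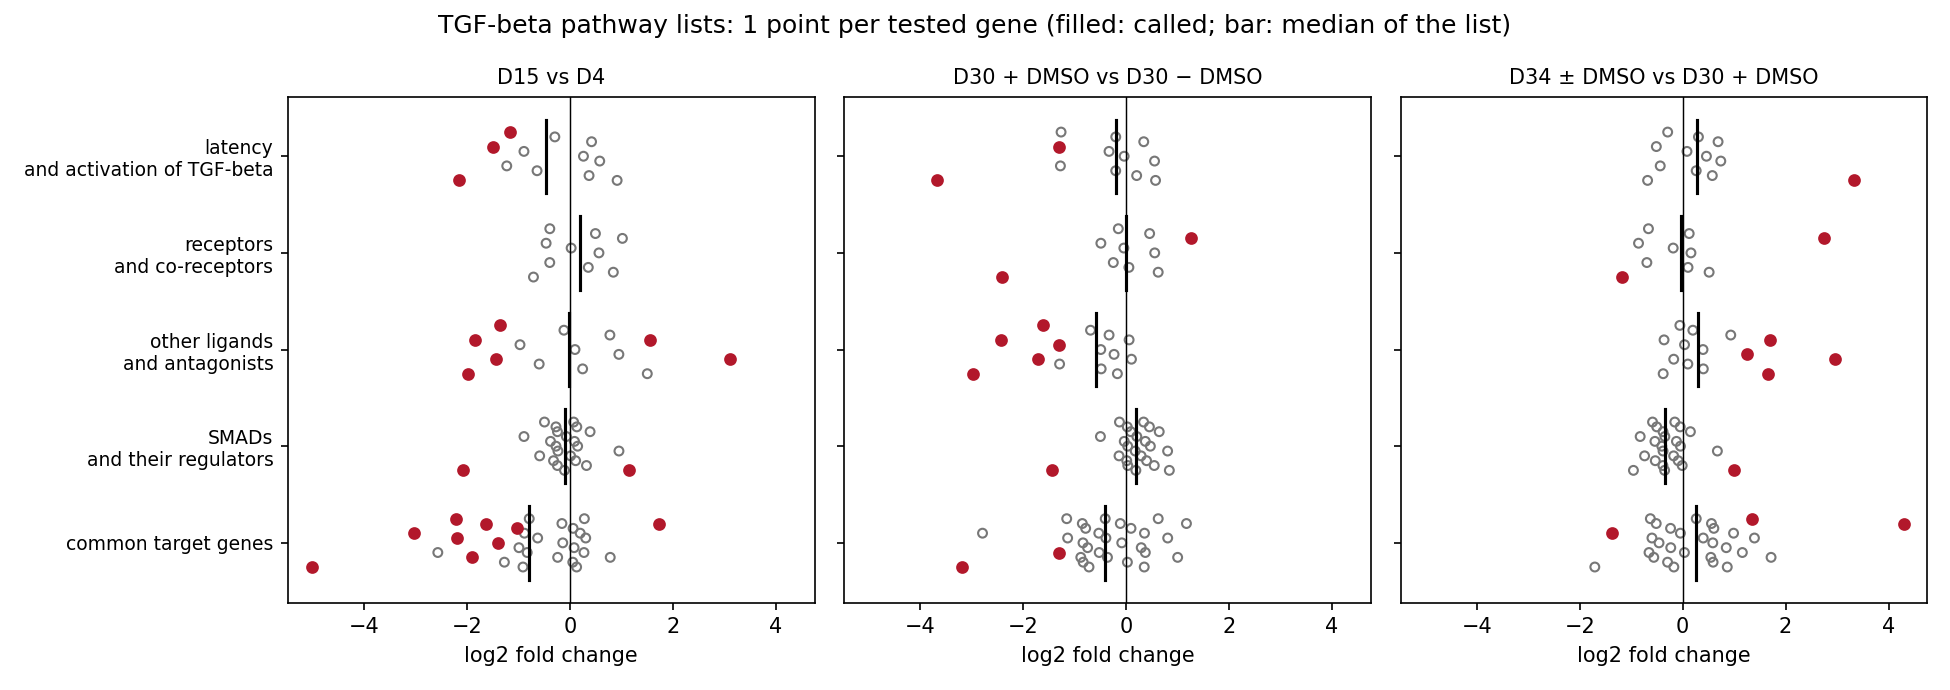
Log2 fold changes of the 88 tested pathway genes in 3 comparisons, 1 point a gene in 5 lists (the vertical scatter within a list has no meaning), with called genes filled red and the median of each list as a bar. The median of the common target genes is -0.79 in D15 against D4 and -0.41 with DMSO, and the outermost points are POSTN in D15 against D4 (-5.01), ITGB6 with DMSO (-3.69) and POSTN after removal (4.29).

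Among the 12 tested genes that hold or release latent TGF-beta, 3 fell from D4 to D15, 2 fell with DMSO and 1 rose after removal. The shares of all probes called in those directions were 3.68%, 4.14% and 4.93%. The integrin subunits ITGB3 and ITGB1 fell from D4 to D15, ITGB3 from a mean of 78.8 to 18.2 (log2 fold change -2.15, SE 0.30, limma adjusted p = 2.33e-05) and ITGB1 from 1732 to 616 (-1.50, adjusted p = 2.72e-06). ITGB3 was well above background on all 4 arrays only at D4, and on 3 at D15. It thus entered the tests through D4 alone, so the filter and this call rest on the same high arrays. ITGB6 and ITGB8, subunits of the integrins that activate the latent ligand, fell with DMSO. ITGB8 went from 110 ± 15.3 to 44.2 ± 6.64 (SD, n = 4 each; -1.31, SE 0.19, limma adjusted p = 9.07e-05). ITGB6 had a mean of 38.8 at D30 − DMSO and of 5.13 at D30 + DMSO, where 1 of the 4 arrays flagged it as well above background, and of 29.3 at D34 ± DMSO. Its log2 fold changes of -3.69 with DMSO (SE 0.67, limma adjusted p = 0.000581) and 3.34 after removal (SE 0.67, adjusted p = 0.00115) rest on those dim signals.

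Among the 10 tested receptors and co-receptors, 1 rose and 1 fell with DMSO, beside 1.68% and 4.14% of all probes. Each turned back after its removal, beside 2.04% of all probes lower and 4.93% higher. BAMBI, a decoy receptor without a kinase domain that dampens the pathway, rose with DMSO from 10429 ± 3179 to 23939 ± 2216 (SD, n = 4 each; log2 fold change 1.26, SE 0.26, limma adjusted p = 0.00206) and fell to 11184 ± 3899 after removal (-1.18, SE 0.26, adjusted p = 0.00293). CD109, a co-receptor that also dampens the signal, did the opposite, with 3249 ± 1019 at D30 − DMSO, 605 ± 143 at D30 + DMSO and 4138 ± 1364 at D34 ± DMSO (log2 fold changes of -2.41, SE 0.23, limma adjusted p = 6.32e-07, and 2.76, adjusted p = 9.48e-08). The DMSO and removal values share the D30 + DMSO arrays here as well.

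Among the 14 tested other ligands and antagonists, 4 fell and 2 rose from D4 to D15 (3.68% and 5.58% of all probes). With DMSO 5 fell (4.14%), and 4 rose after removal (4.93%). INHBE, an activin subunit made by hepatocytes, rose from a mean of 18.9 at D4 to 171 at D15 (log2 fold change 3.12, SE 0.37, limma adjusted p = 3.29e-06), and CHRD, the antagonist chordin, rose from 269.9 to 834 (1.56, adjusted p = 0.00105). NOG, the antagonist noggin, fell from 95.1 to 24.3 (-1.98, adjusted p = 2.95e-05), and GDF15, a stress-induced family member, fell from 69237 to 18022 (-1.85, adjusted p = 0.000332). NOG was well above background on all 4 arrays only at D4, and on 3 at D15. Its entry into the tests thus came through D4 alone, the condition from which it fell. DCN, the proteoglycan decorin that binds TGF-beta, fell with DMSO from 4304 ± 1832 to 531 ± 138 (SD, n = 4 each; -2.97, SE 0.33, limma adjusted p = 3.40e-06) and stood at 4280 ± 1731 after removal (2.97, SE 0.33, adjusted p = 2.44e-06). FSTL3, which binds activins, fell from 1966 ± 855 to 359 ± 130 (-2.43, SE 0.31, limma adjusted p = 2.01e-05) and stood at 1203 ± 591 after removal (1.70, SE 0.31, adjusted p = 0.000561).

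Among the 23 tested SMADs and their regulators, 1 was called in each direction from D4 to D15, 1 fell with DMSO and 1 rose after removal, which is near the share of all probes called in those directions. The gene that moved in all 3 was PMEPA1, which the pathway induces and which holds back SMAD signalling. Its mean was 3918 ± 441 at D4, 925 ± 80.8 at D15, 1025 ± 93.0 at D30 − DMSO, 377 ± 53.3 at D30 + DMSO and 752 ± 88.4 at D34 ± DMSO (SD, n = 4 each). The log2 fold changes were -2.08 from D4 to D15 (SE 0.13, limma adjusted p = 2.78e-09), -1.45 with DMSO (adjusted p = 5.63e-07) and 1.00 after removal (adjusted p = 2.40e-05), the last lying at the 2-fold limit. LDLRAD4, a related inhibitor, rose from 93.7 at D4 to 211 at D15 (1.15, SE 0.26, limma adjusted p = 0.00287).

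Among the 29 tested common target genes, 8 fell and 1 rose from D4 to D15 (3.68% and 5.58% of all probes). With DMSO 2 fell (4.14%), and 2 rose and 1 fell after removal (4.93% and 2.04%). POSTN, the matrix protein periostin, fell from 3885 ± 1287 at D4 to 117 ± 25.7 at D15 (log2 fold change -5.01, SE 0.43, limma adjusted p = 7.95e-08). With DMSO it went from 198 ± 132 to 19.5 ± 5.44, with 2 of the latter 4 arrays well above background (-3.20, SE 0.43, limma adjusted p = 3.59e-05), and after removal to 438 ± 306 (4.29, SE 0.43, adjusted p = 9.23e-07). TGM2, the tissue transglutaminase, fell with DMSO from 830 ± 118 to 333 ± 27.9 (-1.31, SE 0.29, limma adjusted p = 0.0028). ID2, an inhibitor of helix-loop-helix factors that bone morphogenetic proteins induce, rose from 1655 ± 236 at D4 to 5621 ± 1749 at D15 (1.73, SE 0.26, limma adjusted p = 6.08e-05). It stood at 14387 ± 3696 at D30 + DMSO against 7162 ± 1652 at D30 − DMSO, which did not pass, and fell to 5549 ± 1451 after removal (-1.38, SE 0.26, limma adjusted p = 0.000737). PDGFB, a growth factor gene, was called higher after removal (limma adjusted p = 0.00313), but none of its D30 + DMSO signals was well above background, so the change is at least 1.39-fold, set against the lowest signal well above background on each array. Only at D34 ± DMSO (mean 19.9) were all 4 arrays of PDGFB well above background. The gene was thus tested only through the condition in which it was called higher.

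**Figure D4:**
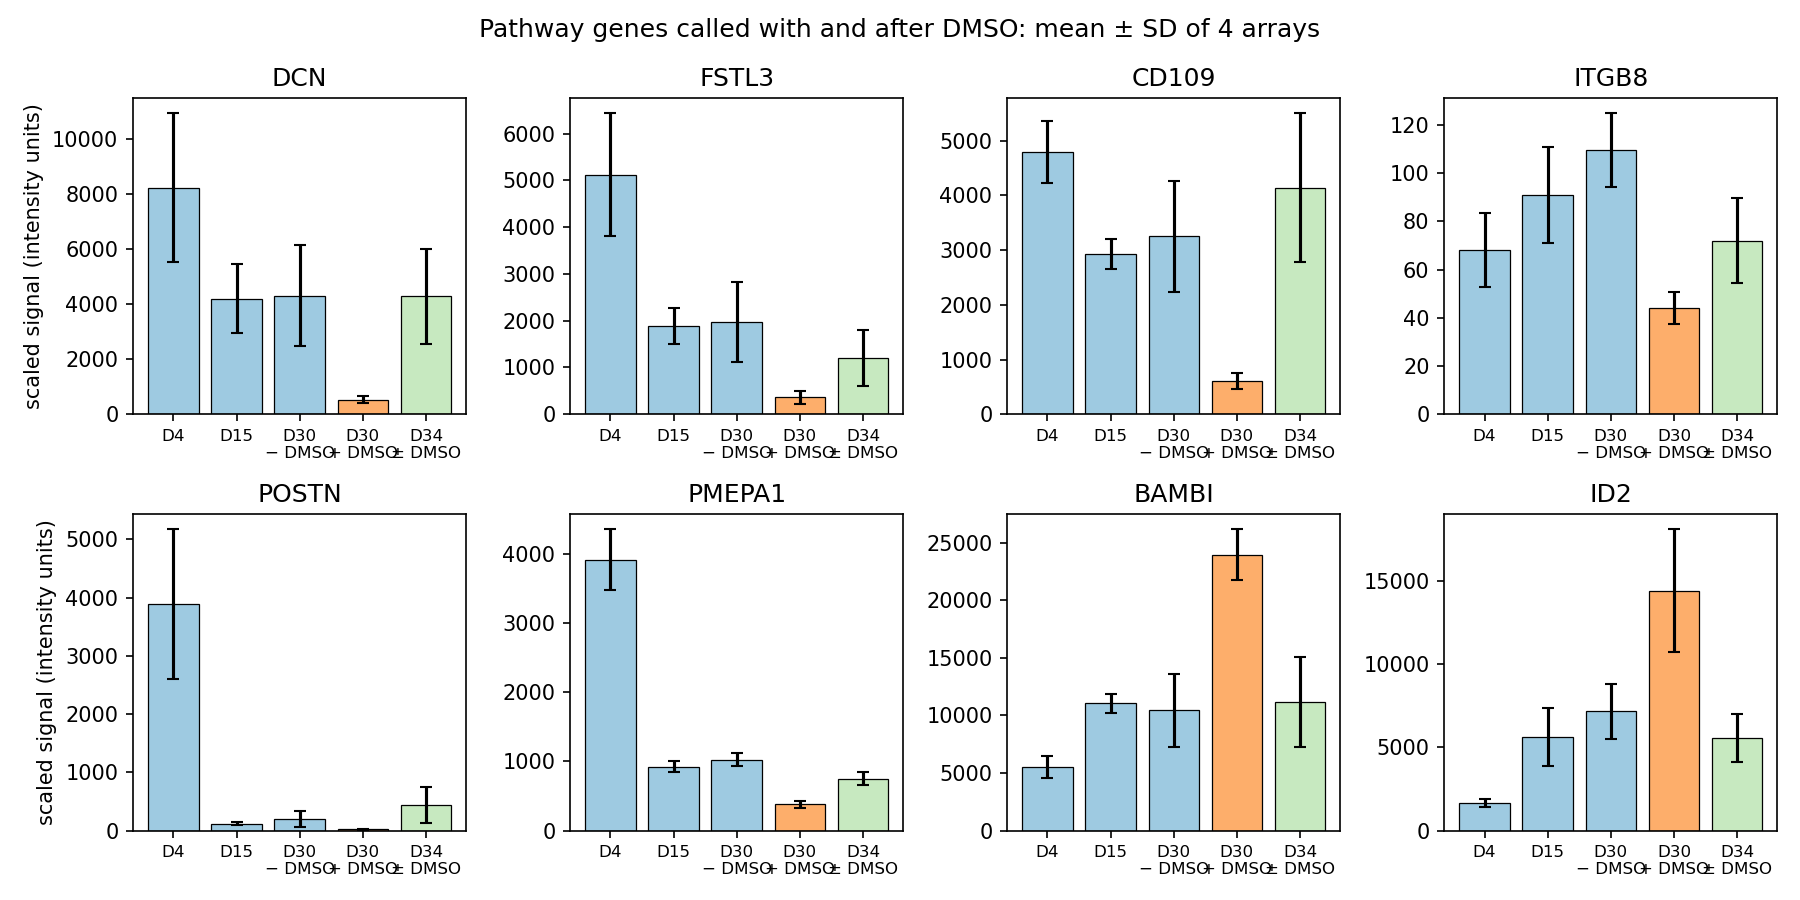
Mean scaled signal in intensity units (linear axis from 0) with the SD of 4 arrays for 8 pathway genes called with or after DMSO, by condition. DCN, FSTL3, CD109, ITGB8, POSTN and PMEPA1 are lowest at D30 + DMSO, while BAMBI (23939) and ID2 (14387) are highest there.

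Markers of other cells were read beside these values. Of 7 stellate cell and fibroblast markers, LUM, DES and RGS5 were well above background on all 20 arrays, while PDGFRB and NGFR never were. The signals of the 7 probes, which are not comparable between probes, summed to 5663 at D4, 1810 at D15, 1696 at D30 − DMSO, 902 at D30 + DMSO and 1489 at D34 ± DMSO. LUM, the proteoglycan lumican, went from 4890 on average at D4 to 1024 at D15, 784 at D30 − DMSO and 125 at D30 + DMSO and stood at 668 at D34 ± DMSO. DES, RGS5 and LRAT did not share its order. DES was between 667 and 789 in all conditions, RGS5 was 57.1 at D4 and 85.3 at D30 + DMSO, and LRAT, well above background on at most 2 arrays of a condition, was 6.05 at D4 and 16.3 at D30 + DMSO. PDGFRA, dim throughout, was 11.03 at D4 and 1.41 at D30 + DMSO. The median log2 value of the 7 was lowest at D4 (-6.55) and highest at D30 + DMSO (-5.13). Of the 4 endothelial markers, CDH5 and KDR were well above background on all arrays, and of the 5 macrophage markers CD14, CD68 and PTPRC were. Whether other cells or a changed share of hepatocyte-like and biliary-like cells had a part in the values was not tested, and in these bulk RNA samples fewer cells of a type and less RNA per cell cannot be told apart.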

How the data were processed

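Per the labels and the study's methods, RNA from 4 independent biological replicates of each condition was labelled with Cy3 and hybridized to Agilent SurePrint G3 arrays. The authors deposited 1 Feature Extraction output per array (version 10.7.3.1 in the submitters' processing notes, 10.7.1.1 in the file headers). In these deposited files the authors' processed intensity of a spot has the background subtracted and is not yet comparable between arrays. The authors' deposited series matrix holds log2 values per probe and served as an alternative. For 21535 probes, and apart from a baseline per probe and array shifts of up to 0.113, its values differed from the log2 intensities over the 75th percentile by 3.58e-07 (median).

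Outlier-flagged spots were dropped and spots of a probe averaged. Signals were divided by the array's 75th percentile and multiplied by the common one, floored at 1 unit and log2 transformed. A probe entered the tests if some condition had it well above background on each of its 4 arrays. All 20 arrays were fitted with 1 mean per condition in limma 3.58.1 (R 4.3.3). Confidence intervals are 95% with 15 degrees of freedom. Accessions gave a current RefSeq symbol for 24826 probes. The number of arrays limits the precision.

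The members and the gene lists were chosen with earlier results of these data known. Named are the 9 genes, from each list the 2 largest called rises and falls per comparison, and the 2 genes most like each called member. ID2 with DMSO, LUM, DES and the other markers were added as context, and 1 gene that this rule names is not reported here. Alternatives were other normalizations, filters and floors, 1 probe per gene, slide, scan session or replicate blocks, a fit of 8 arrays, the methods' t-test, an adjusted p below 0.05 and leaving out each array. Leaving out slide 4 was chosen after seeing the data.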

Additional observations from a re-analysis of the deposited data

Results flagged for a closer look

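Of 50 groups of 4 arrays (10 probes in 5 conditions), 4 held an array that stood apart from the other 3 by the gap relative to the range of the group, and chance alone gives such a gap in about 1 group in 20. TGFB1 at D34 ± DMSO had replicate 4 at a log2 value of -0.15 (506 units) above the other 3 arrays at 180 to 206. TGFBR1 at D30 − DMSO had replicate 4 at -2.25 (119 units) below the others at 138 to 142. TGFBR2 at D30 − DMSO had replicate 4 at 3.13 (4913 units) above the others at 3893 to 4006. The last 2 values come from 1 array. It and the TGFB1 array lie on slide 4, whose part in these values was not tested. TGFBR2 at D15 had replicate 1, on slide 2, at 2.26 (2692 units) below the others at 4091 to 4377.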

How the results depend on the processing

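Of 980 values of single members under the alternatives, 958 kept their side of the limits and no called value turned its direction, while 14 lost a call and 8 gained one, and 43 values that were not called changed sign. Of all probes, 2458 were called from D4 to D15, 1602 with normexp and 1228 with the methods' t-test, and without single arrays between 2219 and 2467. With DMSO 1543 were called, 760 with normexp, 649 with the t-test and 1248 to 1448 without single arrays. After removal 1848 were called, 980 with normexp, 546 with the t-test and 1560 to 1772 without single arrays. For D34 ± DMSO against D30 − DMSO they were 396, and 188 in the fit of 8 arrays, 39 with the t-test and 316 to 415 without single arrays. For D30 − DMSO against D15 the count was 1, and 3 with quantile normalization, 4 with normexp, 0 with the filter for all arrays, 5 with a floor of 10 units, 4 with the slide as a block, 2 with the scan session as a block, 0 in the fit of 8 arrays and with the t-test, 10 at an adjusted p below 0.05, 2 without slide 4, and 1 to 5 without single arrays (5 without D15 replicate 4).

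Of the 9 member probes, the 2 called from D4 to D15 became 1 with normexp and 0 with the filter for all arrays, which by its construction leaves out TGFB2 and LTBP1, and stayed at 2 to 2 without single arrays. The 3 called with DMSO became 1 with normexp and 1 with the t-test, and 2 to 3 without single arrays. The 1 called after removal became 0 with normexp, with the filter for all arrays, in the fit of 8 arrays and with the t-test, 2 with the slide, scan session or replicate block and at an adjusted p below 0.05, and 1 to 2 without single arrays (2 without D34 ± DMSO replicates 3 or 4 or D30 + DMSO replicates 1 or 4). In the other 2 comparisons it stayed at 0 to 0. The causes of the other changes were not tested.

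No source says that a replicate number marks a shared culture or day. Of the 40 pairs of arrays of different conditions with the same number, 28 had deviations correlated above 0.1 (lowest -0.32, median 0.27), and 16 of the 20 arrays correlated best with their own number. Of the 44 pairs on the same slide, 44 did (lowest 0.11, median 0.37). Above 0.1 were also 43 of the 120 pairs with different numbers (median -0.16) and 27 of the 116 pairs on different slides (median -0.17). With the replicate block 2753, 1, 1815, 2102 and 499 probes were called in the 5 comparisons, and among the members it added the call of TGFB3 after removal (1.11) and took none. The folds of TGFB2, TGFB3 and LTBP1 rest in part on dim signals, as their lowest group means are 18.5 to 26.1 units.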
